A study of Homo sapiens with 6 samples.

Results

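Oxidative phosphorylation genes were compared between H460 cells treated with fluoxetine and control H460 cells. The genes were the rows of the deposited count table whose pathway annotation names oxidative phosphorylation. Of the 113 rows with that annotation, 22 rows of the vacuolar proton pump and its partners (names starting with ATP6V or ATP6AP, and TCIRG1) were left out, which left 91 of the 31762 genes in the table. By the prefix of their names, 39 belonged to complex I, 4 to complex II, 10 to complex III, 17 to complex IV and 15 to complex V, and 6 were phosphatases and proton pumps of other kinds. All 91 were encoded in the nucleus, because none of the 17 rows on the mitochondrial chromosome carried a pathway entry. The 13 mitochondrial mRNA genes, which encode subunits of the same complexes, were therefore described beside the 91 as a companion set chosen by chromosome and not by the annotation.

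H460 is an established human line from a large cell lung carcinoma, labelled wild type in both groups. The control group was 3 libraries of H460 cells, and the fluoxetine group was 3 libraries of H460 cells exposed to 20 µM fluoxetine, an antidepressant that inhibits serotonin reuptake, for 24 h. What the control cells received in place of the drug is not given in the labels. The study asked how fluoxetine acts on lung cancer cells, and RNA sequencing addressed the change of gene expression. Nothing in the labels says that the 3 libraries of a group came from separate cultures, so the p-values measure the spread between these libraries, which may be technical. A single established line was used, and RNA levels were measured without protein, oxygen consumption or copy number of mitochondrial DNA. In bulk RNA, fewer cells with a transcript and less transcript per cell cannot be told apart.

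The libraries held 16157507 to 27823667 counts, and each fluoxetine library was shallower than each control library. Of the epithelial markers checked, KRT8, KRT18 and KRT19 were abundant, while EPCAM had 4 to 11 counts and CDH1 0 or 1 count in every library. KRT18 was also lower after fluoxetine (log2 fold change -0.72, adjusted p = 0.0016 by edgeR). Markers of leukocytes, endothelium and muscle had at most 8 counts in any library, and of the fibroblast markers COL1A1 had 59 to 118 counts with COL1A2 and DCN at 0 to 8.

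Oxidative phosphorylation is the process by which mitochondria turn the energy of nutrients into ATP. Complexes I and II pass electrons from NADH and succinate to coenzyme Q, complex III passes them on to cytochrome c, and complex IV hands them to oxygen. Complexes I, III and IV pump protons across the inner membrane, and complex V, the ATP synthase, uses their return flow to make ATP. Complex II is built from nuclear genes alone, whereas the other complexes combine nuclear subunits with subunits made inside the mitochondrion from mitochondrial DNA. Nuclear subunit genes are known targets of NRF1, of the ETS family factor GABP and of YY1, with the coactivator PGC-1α encoded by PPARGC1A.

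The mitochondrial genes lie close together, and the reading frames of a few overlap. The 2 longest overlaps are shown because they bear on how reads of MT-ATP8, MT-ATP6, MT-ND4L and MT-ND4 could be assigned. MT-ATP6 and MT-CO3 also share 1 base, MT:9207, which is not shown. The sequences are of the plus strand of GRCh38, 5′ to 3′, with the bases that belong to both genes in capitals and 8 flanking bases on each side. The overlap of MT-ATP8 and MT-ATP6 is MT:8527-8572 (46 bases) and that of MT-ND4L and MT-ND4 is MT:10760-10766 (7 bases). Each overlap shown starts with the start codon ATG of the downstream gene.
MT-ATP8 and MT-ATP6: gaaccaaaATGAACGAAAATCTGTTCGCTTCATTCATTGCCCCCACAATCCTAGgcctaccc
MT-ND4L and MT-ND4: ctactccaATGCTAAaactaatc

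Promoter windows from 250 bases before to 50 bases after the gene start were available for 74 of the 91 nuclear genes from RefSeq (GRCh38.p14). Motifs were searched as exact letters on both strands. The NRF1 motif, spelled GCGC, any base and TGCGC, was present in 16 of the 74 windows (21.6%) against 6.28% of all 27305 promoters. The ETS motif CCGGAAG was present in 22 (29.7%) against 10.7%, and the YY1 motif AAGATGG in 17 (23.0%) against 6.06%. The motifs do not contain each other. The 3 windows below, which all hold a match, belong to genes with low fluoxetine levels described further on. PPA1, also called lower, had no window. Among further low genes, the window of UQCR10 held an NRF1 match and that of NDUFAB1 held no match to any of the motifs. SDHA was called lower and its window held 4 NRF1 matches, UQCRFS1 was called lower and held 1, and NDUFS3 lay just above the threshold and held 2 ETS matches. Matches are in capitals, and all windows are written 5′ to 3′ on the strand of the gene. They lie at chr5:218070-218369 on the plus strand (SDHA), chr19:29213102-29213401 on the minus strand (UQCRFS1) and chr11:47578824-47579123 on the plus strand (NDUFS3).
SDHA promoter: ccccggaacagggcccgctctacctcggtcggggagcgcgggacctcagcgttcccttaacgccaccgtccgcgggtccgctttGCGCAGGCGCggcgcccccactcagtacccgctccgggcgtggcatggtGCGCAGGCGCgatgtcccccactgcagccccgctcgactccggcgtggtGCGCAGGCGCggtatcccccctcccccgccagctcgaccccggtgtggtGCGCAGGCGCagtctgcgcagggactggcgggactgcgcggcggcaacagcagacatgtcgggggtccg
UQCRFS1 promoter: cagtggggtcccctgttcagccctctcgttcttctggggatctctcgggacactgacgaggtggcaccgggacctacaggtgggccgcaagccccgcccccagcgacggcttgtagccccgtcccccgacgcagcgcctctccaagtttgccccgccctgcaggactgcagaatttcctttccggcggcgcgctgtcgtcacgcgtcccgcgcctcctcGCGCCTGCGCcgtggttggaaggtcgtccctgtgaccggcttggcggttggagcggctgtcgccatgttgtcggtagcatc
NDUFS3 promoter: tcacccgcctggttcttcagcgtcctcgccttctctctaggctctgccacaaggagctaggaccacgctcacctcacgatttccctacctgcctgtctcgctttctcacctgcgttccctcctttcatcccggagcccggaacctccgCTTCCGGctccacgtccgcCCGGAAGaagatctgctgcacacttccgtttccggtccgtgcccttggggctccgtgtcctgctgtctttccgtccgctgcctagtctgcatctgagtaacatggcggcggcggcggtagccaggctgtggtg

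Genes with and without a match had close fold changes. The median log2 fold change was -0.19 for the 16 tested genes with the NRF1 motif and -0.16 for the 53 tested genes with a window but no NRF1 motif. It was -0.19 and -0.16 with and without the ETS motif, and -0.14 and -0.18 with and without the YY1 motif. A match is a run of letters and not a measured binding site.

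Most nuclear oxidative phosphorylation genes had log2 fold changes slightly below 0 after fluoxetine, and few passed the test. Of the 91 genes, 85 had enough counts to be tested. A gene was called at an adjusted p under 0.05 (edgeR quasi-likelihood test, adjusted over all 15646 tested genes), at any fold change. Of the 85 genes, 3 were called lower (UQCRFS1, PPA1 and SDHA) and 0 higher, against 5.32% of all tested genes called lower and 7.76% called higher. The share of 3 in 85 lay below the background. At an unadjusted p under 0.05, 15 of the 85 were lower and 0 higher, where the background was 12.9% lower and 15.8% higher. With DESeq2, 6 were called lower (7.06%, background 6.98%), the same 3 and NDUFAB1, NDUFS3 and UQCR10, and 0 higher (background 7.3%). The share called lower by DESeq2 was thus near its background. No gene of the 85 was called with a change of at least 2-fold, which 1.39% of all tested genes reached.

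The estimates themselves leaned to one side. The log2 fold change was below 0 for 80 of the 85 genes (94.1%), against 45.8% of all tested genes. The median was -0.18, against 0.03 over all tested genes, and the range ran from -0.66 to 0.26. These genes are measured in the same 6 libraries and move with them, so their number is not a number of independent observations. The levels overlapped between the groups for most of them. In 9 genes each fluoxetine library was below each control library (10.6%, background 14.4%), and in 1 gene, SDHC, each was above (background 17.5%).

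**Figure D1:**
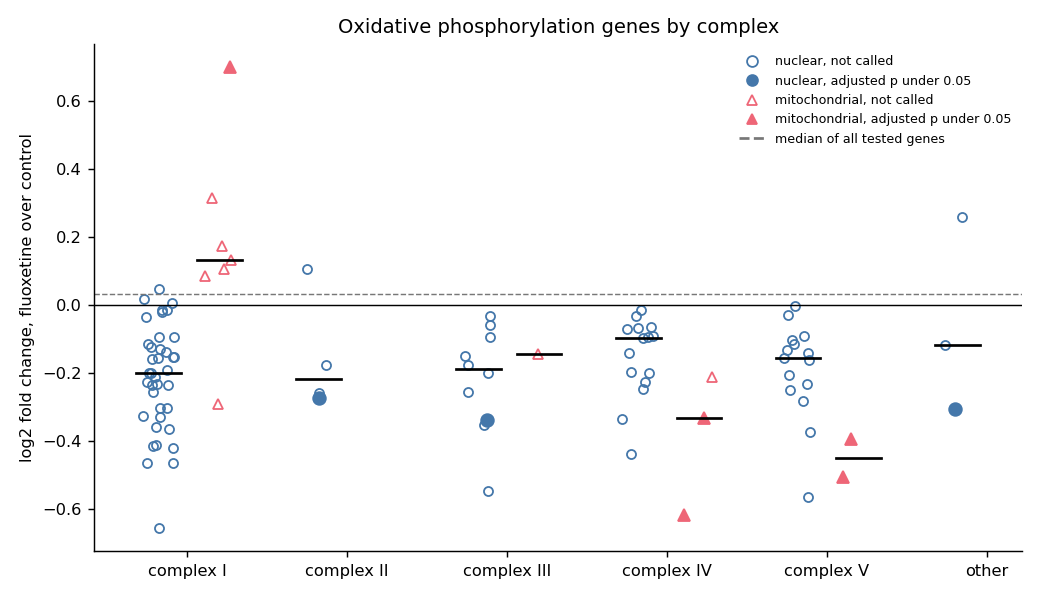
Each point is the log2 fold change of fluoxetine over control for 1 gene (y axis), grouped by complex (x axis), with nuclear genes as circles and mitochondrial genes as triangles. Filled symbols had an adjusted p under 0.05, short black lines are medians of each group and the dashed line is the median of all tested genes (0.03). Nuclear genes lie mostly between -0.5 and 0 in every complex, while mitochondrial genes spread from -0.62 to 0.70.

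Summed over the 91 genes, the level overlapped between the groups. The sum was 8864, 8333 and 7712 CPM (counts scaled to a common normalized library size) in control replicates 1, 2 and 3. It was 7224, 8096 and 7043 CPM in fluoxetine replicates 1, 2 and 3. Control replicate 3 thus lay below fluoxetine replicate 2. The means were 8303 ± 577 and 7454 ± 563 CPM (SD, n = 3), a change of -10.2%. The median gene of a library, set against its control mean, gave log2 values of 0.15, -0.02 and -0.15 in the control libraries and -0.22, -0.06 and -0.28 in the fluoxetine libraries.

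The number of called genes depended on single libraries. Without control replicate 3, 28 of 85 genes were called lower (background 12.7%), and without fluoxetine replicate 2, 9 of 86 (background 6.96%). Without control replicate 1, control replicate 2, fluoxetine replicate 1 or fluoxetine replicate 3, 0 genes were called, with 1.01% to 3.48% of all tested genes called lower in those fits. In none of these 6 fits was a nuclear oxidative phosphorylation gene called higher, where 2.53% to 10.3% of all tested genes were. The median log2 fold change stayed between -0.29 and -0.13.

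Part of the spread between replicates ran with base composition. In the third replicate of each group, GC-rich members were low against the group mean. Over the 85 genes, the deviation of a gene from its group mean had a Pearson correlation with the GC content of its exons of -0.51 in control replicate 3 and -0.52 in fluoxetine replicate 3. The same correlation lay between 0.18 and 0.44 in the other 4 libraries. It is a correlation across genes that share each library, and over 15600 tested genes it was -0.56 and -0.30 in those 2 libraries. The 29 genes of highest GC content had a median log2 fold change of -0.25, the 27 in the middle -0.18 and the 29 of lowest GC content -0.13. With trends of GC content and exon length removed from each library, these medians were -0.22, -0.20 and -0.17, and 14 of the 85 genes were called lower and 0 higher. The background of that fit was 15.0% lower and 9.79% higher. Without the third replicate of both groups, 14 were called lower and 0 higher (background 7.66% lower and 9.64% higher). Both fits were chosen after the data were seen.

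**Figure D2:**
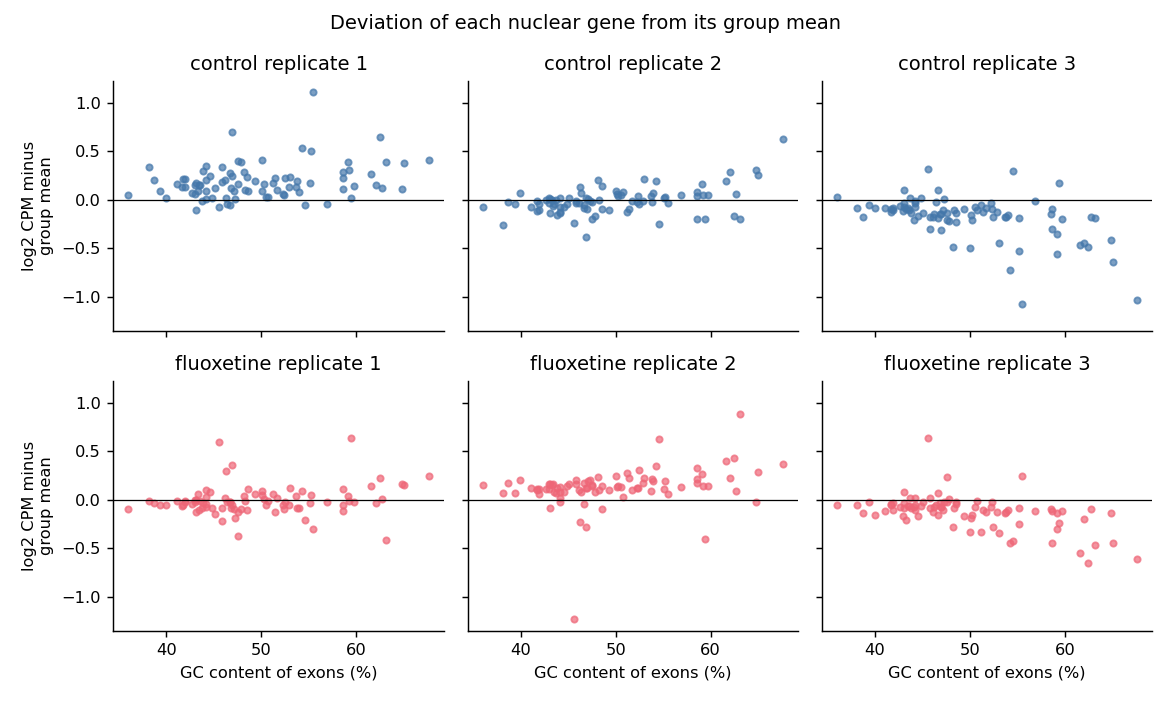
Each point is 1 of the 85 tested nuclear genes in 1 library, with the GC content of its exons in percent on the x axis and its log2 CPM minus the mean of its group on the y axis. In control replicate 3 and fluoxetine replicate 3 the GC-rich genes lie mostly below 0 (Pearson correlation -0.51 and -0.52), and in the other 4 libraries the correlation was positive.

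Complex I is the NADH dehydrogenase and the largest of the complexes. Of its 39 nuclear genes, 38 were tested and 0 were called by edgeR, against 2 by DESeq2 (both lower) and 6 at an unadjusted p under 0.05 (all lower). NDUFA7, with 1 to 15 counts in a library, was not tested. The median log2 fold change was -0.20, with 35 estimates below 0 and 3 above. NDUFB8, an accessory subunit, had the lowest estimate (-0.66 ± 0.39 SE, adjusted p = 0.299), but with only 20, 15 and 33 counts in the control libraries and 8, 16 and 7 in the fluoxetine libraries. NDUFB2, another accessory subunit, had the highest (0.05 ± 0.14, adjusted p = 0.859), and 247 to 275 counts in control against 190 to 215 in fluoxetine.

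NDUFS3, a core subunit of the arm that receives electrons, was singled out after its values were seen. Its level was 43.0, 40.5 and 34.8 CPM in the control libraries and 31.6, 32.7 and 27.9 CPM in the fluoxetine libraries. The groups did not overlap, and the adjusted p was 0.0538 (log2 fold change -0.36 ± 0.11 SE). It was called in 2 of the 6 fits without 1 library. In some GC-rich complex I genes the replicates differed more than the groups. NDUFB7, with 65% GC, had 42.8, 39.2 and 21.0 CPM in control and 30.2, 33.0 and 19.9 CPM in fluoxetine. The third replicate was the lowest of each group, and the adjusted p was 0.480. NDUFS8, which binds iron-sulphur clusters, had 61.7, 58.6 and 37.0 CPM in control and 54.2, 65.2 and 33.8 CPM in fluoxetine, with the same order and a log2 fold change of -0.04. Both genes were also chosen after their values were seen.

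Complex II, succinate dehydrogenase, links the citric acid cycle to the chain and has 4 genes. SDHA (ENSG00000073578, chr5:218241-256700, plus strand), the flavoprotein that oxidises succinate, had 197, 195 and 178 CPM in the control libraries and 147, 170 and 154 CPM in the fluoxetine libraries. Each fluoxetine library was below each control library, and SDHA fell by 0.27 on the log2 scale (SE 0.08, adjusted p = 0.0475). It was called in 2 of the 6 fits without 1 library, over which the adjusted p ran from 0.00794 to 0.197. Reads of its pseudogenes could not be set apart with certainty, although SDHAP1 and SDHAP3 averaged only 163 and 64.7 counts a library and had log2 fold changes of 0.10 and 0.02.

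SDHB, the iron-sulphur subunit, had 119, 111 and 98.7 CPM in control and 86.0, 99.2 and 89.1 CPM in fluoxetine. These groups touched, since fluoxetine replicate 2 exceeded control replicate 3, and the adjusted p was 0.0877 (log2 fold change -0.26 ± 0.09 SE). The membrane anchors SDHC and SDHD had estimates of opposite sign, and neither was called. SDHC had 175, 176 and 170 CPM in control and 182, 189 and 190 CPM in fluoxetine. Every fluoxetine library was above every control library by a small margin (0.11 ± 0.06, adjusted p = 0.321), and with trends of GC content and length removed the estimate was -0.10. SDHD had 56.3, 55.6 and 56.4 CPM in control and 43.4, 56.7 and 48.7 CPM in fluoxetine (-0.18 ± 0.10, adjusted p = 0.286).

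**Figure D3:**
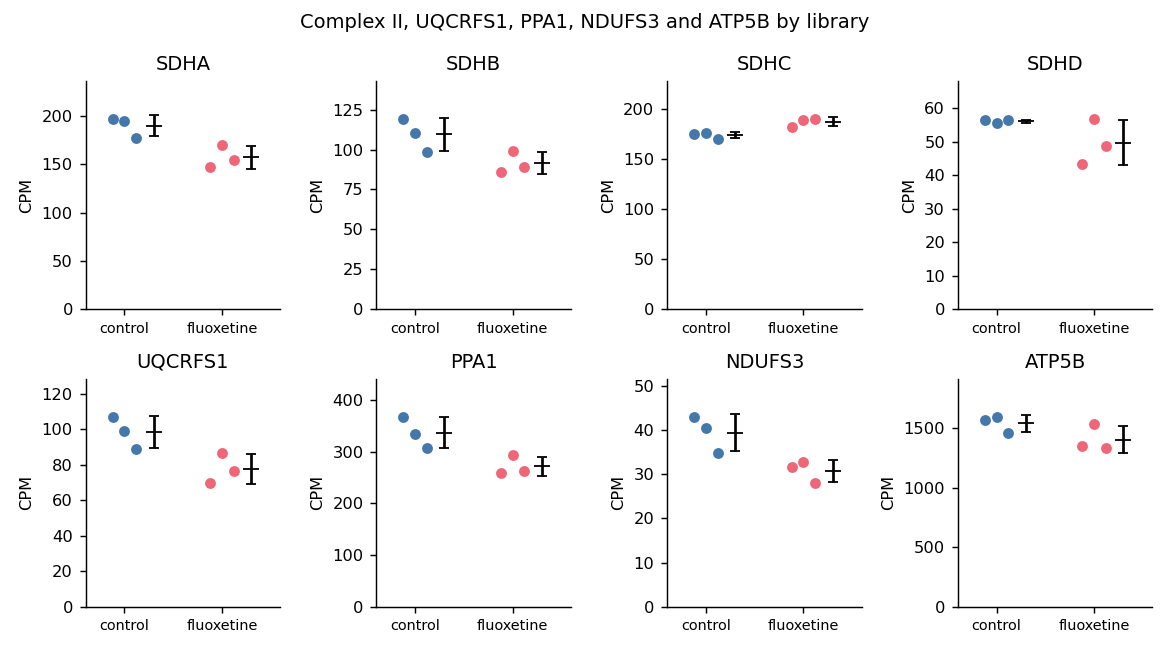
The y axis of each panel is the level of 1 nuclear gene in CPM, starting at 0, with a point for each of the 3 control and 3 fluoxetine libraries (replicates 1 to 3 from left to right) and the mean ± SD beside them. SDHA, UQCRFS1, PPA1 and NDUFS3 show groups that do not overlap, lower in fluoxetine, SDHC shows a small shift up, and ATP5B overlaps.

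Complex III, the cytochrome bc1 complex, had 10 nuclear genes, all tested and all with estimates below 0 (median -0.19). UQCRFS1 (ENSG00000169021, chr19:29205321-29213541, minus strand) encodes the Rieske iron-sulphur protein that takes electrons from coenzyme Q. It had 107, 99.2 and 89.1 CPM in the control libraries and 69.9, 86.9 and 76.4 CPM in the fluoxetine libraries. The highest fluoxetine library lay just under the lowest control library. UQCRFS1 fell by 0.34 on the log2 scale (SE 0.10, adjusted p = 0.0494), and over the 6 fits without 1 library the adjusted p ran from 0.00642 to 0.201, with 2 calls. Its pseudogene UQCRFS1P1 had 0 to 2 counts in any library.

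UQCR10, a small subunit named after its values were seen, had 43.5, 35.5 and 35.8 CPM in control and 31.2, 32.1 and 26.6 CPM in fluoxetine. The groups did not overlap, and the adjusted p was 0.0679 (-0.35 ± 0.11 SE). The hinge protein gene UQCRH had 140, 111 and 107 CPM in control and 95.8, 108 and 94.6 CPM in fluoxetine (-0.26 ± 0.11, adjusted p = 0.149). Its near-identical relative UQCRHL had the lowest estimate of the complex (-0.55 ± 0.33, adjusted p = 0.313), with 40 to 100 counts in control and 27 to 42 in fluoxetine. Reads of the pair could be divided differently by another counting. UQCR11 had the highest estimate (-0.03 ± 0.12, adjusted p = 0.890).

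Complex IV, cytochrome c oxidase, had 17 genes by prefix, of which COX10, COX11, COX15 and COX17 encode assembly factors and not subunits. The 15 tested genes had estimates below 0 throughout, the median nearest to 0 of the 5 complexes (-0.10) and 0 calls by edgeR or DESeq2, with 1 gene lower at an unadjusted p under 0.05. Without the 4 assembly factors the median of the 11 tested subunits was -0.14. COX8A had the lowest estimate (-0.44 ± 0.25, adjusted p = 0.288) on 25 to 75 counts, and COX7A2L the highest (-0.01 ± 0.08, adjusted p = 0.939).

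Several complex IV subunits come as a widespread form and a form of particular tissues. The widespread forms were measured at unequal levels in H460 cells. Per kilobase of exon in the control group, COX6B1 had 116 CPM, COX4I1 47.3, COX7B 37.0, COX7A2 31.0 and COX7A2L 19.4. The measured values of the widespread forms COX8A and COX6A1 were far lower, at 5.52 and 2.95 CPM per kilobase. Their counts were 25 to 75 and 57 to 113 a library. Each shares exon bases with another annotated protein-coding gene on the same strand. How reads in such shared bases were assigned is not given in the sources used here, so both levels are uncertain. The heart and muscle form COX7A1 had 0 to 4 counts in each library and the testis form COX6B2 0 to 2, which were too few to test. COX4I2, COX6A2, COX7B2 and COX8C were not among the rows analysed here. COX4I1 had 248, 224 and 207 CPM in control and 189, 223 and 181 CPM in fluoxetine, overlapping, with an adjusted p of 0.208. COX6B1 had 122, 110 and 95.3 CPM in control and 89.6, 99.0 and 86.5 CPM in fluoxetine, also overlapping, with an adjusted p of 0.129. COX7B, COX7A2 and COX6A1 had log2 fold changes of -0.09, -0.10 and -0.09 with adjusted p-values of 0.601, 0.601 and 0.805. NDUFA4, named as a complex I gene but now regarded as a complex IV subunit, had 22.9 CPM per kilobase in control against 0.24 for its relative NDUFA4L2, which had 7 to 20 counts a library. The log2 fold changes were -0.12 ± 0.10 and -0.02 ± 0.46.

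Complex V, the ATP synthase, had 15 nuclear genes, all tested and all with estimates below 0 (median -0.16). By edgeR and by DESeq2 0 were called, and 2 were lower at an unadjusted p under 0.05. ATP5D, the delta subunit of the catalytic head, had the lowest estimate of the complex (-0.56 ± 0.37 SE). Its counts were 620, 628 and 285 in the control libraries and 298, 331 and 171 in the fluoxetine libraries, and its exons had the highest GC content of the tested genes (67.6%). The third replicate was low in both groups, and the adjusted p was 0.356. Without the third replicates the adjusted p was 0.000659 and the log2 fold change -0.69. ATP5J had the estimate nearest to 0 (-0.005, adjusted p = 0.991).

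The 3 genes ATP5G1, ATP5G2 and ATP5G3 encode the same mature proton-carrying ring subunit. ATP5G1 had 133, 124 and 117 CPM in control and 106, 112 and 95.7 CPM in fluoxetine. ATP5G3 had 263, 257 and 240 CPM in control and 212, 232 and 203 CPM in fluoxetine. Neither overlapped between groups, and their adjusted p-values were 0.0745 and 0.0674 at log2 fold changes of -0.25 ± 0.08 and -0.23 ± 0.08. ATP5G2 had 162, 162 and 138 CPM in control and 125, 151 and 123 CPM in fluoxetine, which overlapped (adjusted p = 0.202). Mean levels in control were 125, 154 and 253 CPM for ATP5G1, ATP5G2 and ATP5G3. Per kilobase they were 47.7, 38.5 and 37.4 CPM, over exon lengths of 2615, 3991 and 6780 bases. Those lengths merge the exons of all annotated transcripts, so the levels of the 3 genes against each other are uncertain. The catalytic beta subunit gene ATP5B was the most abundant of the 91 genes per kilobase, at 665 CPM, and took 18.6% of their summed CPM. It had 1569, 1598 and 1463 CPM in control and 1350, 1536 and 1333 CPM in fluoxetine (-0.13 ± 0.08, adjusted p = 0.297).

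The 6 remaining genes handle phosphate or pump protons elsewhere. PPA1 (ENSG00000180817, chr10:70202830-70233911, minus strand), the cytosolic pyrophosphatase, had 368, 333 and 308 CPM in the control libraries and 259, 293 and 263 CPM in the fluoxetine libraries. The groups did not overlap, and PPA1 fell by 0.31 on the log2 scale (SE 0.08, adjusted p = 0.0386), with 2 calls and adjusted p-values of 0.00476 to 0.158 over the 6 fits without 1 library. PPA1 is not part of a respiratory complex, and the mitochondrial pyrophosphatase PPA2 had an estimate of -0.12 (adjusted p = 0.497). LHPP had the highest estimate of all tested members (0.26 ± 0.36, adjusted p = 0.673) on 12 to 27 counts. The stomach and colon proton pump genes ATP4A, ATP4B and ATP12A had at most 10 counts in any library and were not tested.

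A number of nuclear members had few counts for genes of this pathway. The mean count over the 6 libraries was under 100 for 20 of the 91, and 15 of these 20 share exon bases with another annotated gene, against 34 of the 71 with a higher mean. The partner of 13 of the 15 was annotated as protein-coding. For NDUFB8, 48.5% of the exon bases were shared, for ATP5I 61.6% and for COX8A 34.5%. How the counting treated reads that fit 2 genes is not given in the sources used here. The levels of these members are therefore uncertain, and their part in the result was not tested. Leaving out all 20, the remaining 71 genes had 3 calls, all lower, and a median log2 fold change of -0.16.

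The mitochondrial mRNA genes were called in both directions. Of the 13, 4 were called lower (MT-CO3, MT-ATP8, MT-ATP6 and MT-CO1) and 1 higher (MT-ND4L), against 5.32% and 7.76% of all tested genes. The log2 fold change was below 0 for 7 and above 0 for 6. The 6 neighbours from MT-CO1 to MT-ND3 along the genome were all below 0, whereas the complex I genes before and after that run, MT-ND1, MT-ND2, MT-ND4L, MT-ND4, MT-ND5 and MT-ND6, were all above 0. In 7 genes the fluoxetine libraries lay below the control libraries without overlap and in 2 above, where the background was 14.4% and 17.5%.

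**Figure D4:**
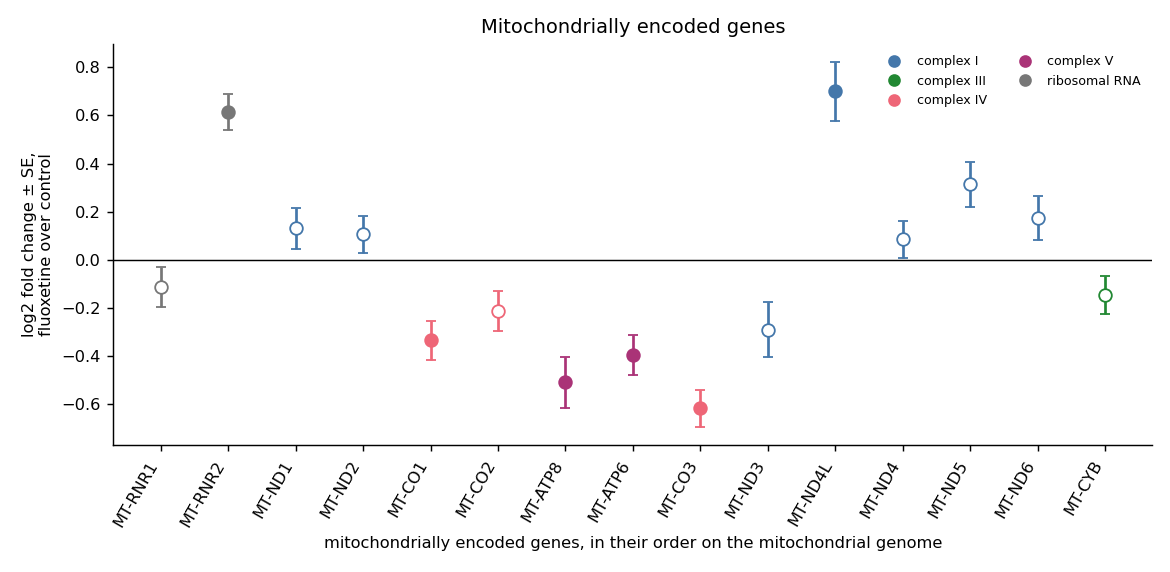
The x axis gives the mitochondrially encoded genes in their order on the genome and the y axis their log2 fold change of fluoxetine over control, with bars for the SE of the fit and filled points for an adjusted p under 0.05. MT-RNR2 (0.61) and MT-ND4L (0.70) lie highest, and the run from MT-CO1 to MT-ND3 lies below 0 with its lowest point at MT-CO3 (-0.62).

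The 3 complex IV genes encode the catalytic core of cytochrome c oxidase. MT-CO3 (ENSG00000198938, MT:9207-9990, plus strand) had 7256, 6903 and 7125 CPM in the control libraries and 4365, 5014 and 4494 CPM in the fluoxetine libraries. The groups lay far apart, and MT-CO3 fell by 0.62 on the log2 scale (SE 0.08, adjusted p = 0.000871), a change of -34.8%, and was called in all 6 fits without 1 library. MT-CO1 (ENSG00000198804, MT:5904-7445, plus strand) had 26095, 26512 and 28674 CPM in control and 20212, 22554 and 21685 CPM in fluoxetine. It fell by 0.33 (SE 0.08, adjusted p = 0.0234) and was called in 4 of the 6 fits, all but those without fluoxetine replicate 1 and without fluoxetine replicate 3. Without the third replicates its adjusted p was 0.105. MT-CO2 had 8530, 7726 and 7557 CPM in control and 6422, 7403 and 6725 CPM in fluoxetine. Its groups did not overlap, but it was not called (-0.21 ± 0.08, adjusted p = 0.124). Within complex IV the 3 genes thus changed by unequal amounts, and the ratio of MT-CO1 to MT-CO3 per kilobase was 1.94 in control and 2.36 in fluoxetine.

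The complex V genes MT-ATP8 and MT-ATP6 encode subunits of the membrane part of the ATP synthase and are read from 1 shared transcript. MT-ATP8 (MT:8366-8572) had 63.7, 51.1 and 56.6 CPM in control and 37.6, 44.2 and 38.7 CPM in fluoxetine. MT-ATP6 (MT:8527-9207) had 3740, 3357 and 3181 CPM in control and 2451, 2712 and 2650 CPM in fluoxetine. Both fell without overlap, by 0.51 (SE 0.11) and 0.40 (SE 0.08) on the log2 scale, each with an adjusted p of 0.0119 and 5 calls in the 6 fits without 1 library. Fluoxetine replicate 1 was the library without which neither kept its call. Although they share a transcript, MT-ATP8 had 276 CPM per kilobase in control and MT-ATP6 5031. Of the bases of MT-ATP8, 22% lie in the overlap shown above, and reads across it fit both genes.

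The complex I genes leaned upward apart from MT-ND3. MT-ND4L (ENSG00000212907, MT:10470-10766, plus strand) had 206, 264 and 273 CPM in the control libraries and 452, 347 and 410 CPM in the fluoxetine libraries. Every fluoxetine library was above every control library, and MT-ND4L rose by 0.70 on the log2 scale (SE 0.12, adjusted p = 0.00501) and was called in all 6 fits without 1 library. MT-ND4, which shares its transcript with MT-ND4L, had 12668, 12576 and 13165 CPM in control and 12784, 14205 and 13741 CPM in fluoxetine. Its groups overlapped (0.08 ± 0.08, adjusted p = 0.520). Although they share a transcript, MT-ND4L had 835 CPM per kilobase in control and MT-ND4 9291. How reads that fit both genes were assigned is not given in the sources used here, so the level and rise of MT-ND4L are uncertain. The part of read assignment was not tested. MT-ND5 had 4037, 4164 and 4797 CPM in control and 5155, 5058 and 5954 CPM in fluoxetine, without overlap, and lay just above the threshold (0.31 ± 0.09, adjusted p = 0.0508).

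MT-ND1, MT-ND2 and MT-ND6 had log2 fold changes of 0.13, 0.11 and 0.17 with adjusted p-values of 0.346, 0.407 and 0.247, and overlapping groups. MT-ND6 is encoded on the opposite strand from the other 12, and the sources used here do not state if reads were counted by strand. MT-ND3 had 615, 448 and 460 CPM in control and 407, 441 and 397 CPM in fluoxetine, without overlap and not called (-0.29 ± 0.11, adjusted p = 0.122). The complex III gene MT-CYB, cytochrome b, had 3857, 3668 and 3512 CPM in control and 3046, 3458 and 3474 CPM in fluoxetine, also without overlap and not called (-0.15 ± 0.08, adjusted p = 0.259).

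Complex I genes made up more, and complex IV genes less, of the mitochondrial mRNA counts in the fluoxetine libraries. Complex I genes took 36.2%, 36.5% and 36.9% of these counts in the control libraries and 44.6%, 44.1% and 44.8% in the fluoxetine libraries. Complex IV genes took 53.9%, 54.2% and 54.6% in control and 47.0%, 47.5% and 46.5% in fluoxetine. Complex V genes took 4.49% ± 0.41 and 3.77% ± 0.03 (SD, n = 3), and MT-CYB took 4.74% in both groups. The groups did not overlap for complexes I, IV and V. Shares of 1 total must sum to the whole, so a rise of complex I and a fall of complex IV are not separate measurements. These shares do not depend on how the libraries were scaled.

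The mitochondrial mRNA genes together took 7.64%, 7.54% and 7.92% of all counts in the control libraries and 6.72%, 7.33% and 7.11% in the fluoxetine libraries. The share was lower in each fluoxetine library, with means of 7.70% ± 0.20 and 7.05% ± 0.30 (SD, n = 3). With 3 libraries a group, an exact two-sided permutation test cannot give a p below 0.1. The values of the ribosomal RNA genes, which precede the mRNA genes, lay apart. MT-RNR2, the large ribosomal RNA, had 8823, 8422 and 8786 CPM in control and 12815, 13856 and 13176 CPM in fluoxetine. It rose by 0.61 on the log2 scale (SE 0.07, adjusted p = 0.000633) and was called in all 6 fits without 1 library. MT-RNR1, the small ribosomal RNA, had a log2 fold change of -0.11 ± 0.08 (adjusted p = 0.429). Of the 2 transfer RNA genes among the rows, MT-TP had 88.0, 76.0 and 78.7 CPM in control and 95.2, 102 and 96.0 CPM in fluoxetine. Its groups did not overlap, and it lay just above the threshold (0.27 ± 0.08, adjusted p = 0.0508), with 0 calls in the 6 fits. MT-TY had 1 to 2 counts a library and was not tested. Both were named after their values were seen. Ribosomal RNA in these libraries is what remained after library preparation, and how ribosomal RNA was removed is not given in the sources used here.

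**Figure D5:**
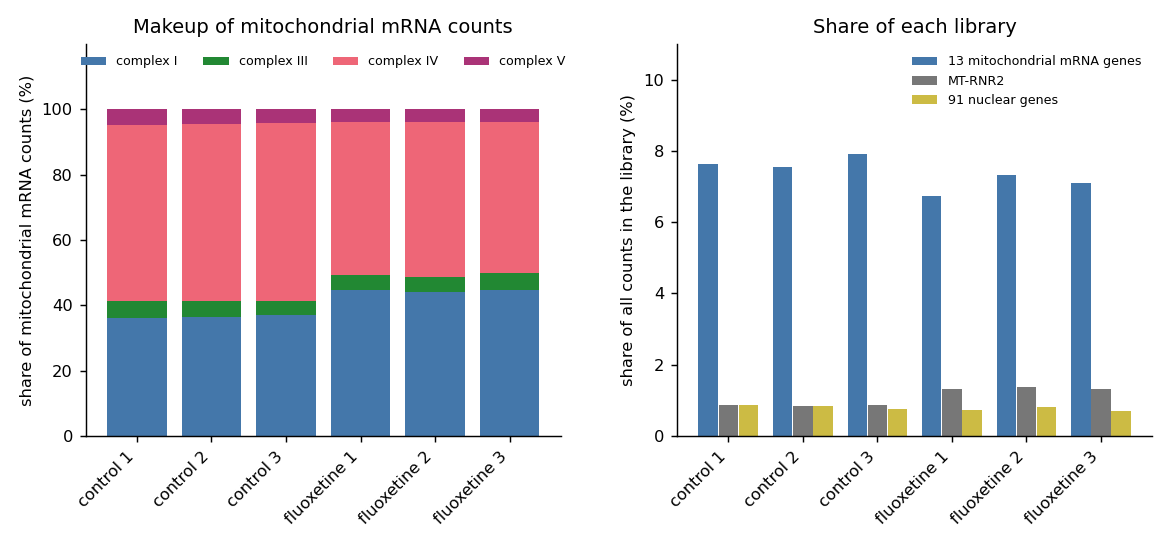
Left, the share of mitochondrial mRNA counts (y axis, percent) from genes of complexes I, III, IV and V in each of the 6 libraries. Right, the share of all counts of a library (y axis, percent) in the 13 mitochondrial mRNA genes, in MT-RNR2 and in the 91 nuclear genes. Complex I makes up 36.2 to 36.9% in control and 44.1 to 44.8% in fluoxetine libraries, and MT-RNR2 rises from 0.86% to 1.34% of all counts.

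Stretches of mitochondrial sequence are also present in the nuclear genome, and reads of near-identical copies could be assigned to either place. On chromosome 1, MTND2P28 had 5476 to 9039 counts and an estimate of 0.23 (adjusted p = 0.101). MTCO1P12 had 358 to 987 counts and fell by 0.63 (SE 0.09, adjusted p = 0.00197), while MTATP6P1 had 3553 to 6781 counts and an estimate of -0.25 (adjusted p = 0.156). Each copy had the sign of the mitochondrial gene it resembles, MT-ND2, MT-CO1 and MT-ATP6. Counts of these mitochondrial genes are uncertain to that extent.

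Per kilobase, mitochondrial transcripts exceeded nuclear ones by a wide margin. In control the median mitochondrial mRNA gene had 4029 CPM per kilobase and the median tested nuclear gene 19.6. The nuclear lengths merge the exons of all annotated transcripts (9851 bases for NDUFA5), whereas mitochondrial genes were divided by their own length. This lowers the nuclear values and widens the gap to an extent that was not measured. MT-CO1 was the most abundant at 17570 and MT-ATP8 the least at 276, and 12 of the 13 lay above ATP5B, the most abundant nuclear gene. The order in control ran from MT-CO1 to MT-CO2 (11605), MT-ND4 (9291) and MT-CO3 (9049). In fluoxetine MT-CO1 (13932) and MT-CO2 (10015) were followed by MT-ND4 (9852), and MT-CO3 (5898) lay beside MT-ND2 (5867). Among nuclear genes NDUFS5 and COX6B1 had 236 and 116 CPM per kilobase in control.

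Other genes that build or feed the chain were described with 14 lists written from general knowledge. Over the 265 tested genes of these lists, 42 were called lower (15.8%, background 5.32%) and 3 higher (1.13%, background 7.76%), with a median log2 fold change of -0.17. Of the 42, 33 stood in the 3 lists for gene expression and protein supply inside mitochondria. Of 77 tested genes of the mitochondrial ribosome, which makes the mitochondrially encoded subunits, 13 were called lower and 0 higher, with a median of -0.28. Of 27 genes listed for mitochondrial transcription and RNA handling, 10 were called lower and 0 higher (median -0.17). TWNK, 1 of the 10, encodes a helicase of mitochondrial DNA replication and kept its call in 1 of the 6 fits without 1 library. Of 26 genes of protein import, which brings the nuclear subunits into mitochondria, 10 were called lower and 0 higher (median -0.23). These counts moved with single libraries as well. The total called lower was 112 without control replicate 3 (41.9%, background 12.7%) and 64 without fluoxetine replicate 2 (24.0%, background 6.96%). It was 15 without control replicate 1 (5.64%, background 3.48%) and 9 without control replicate 2 (3.40%, background 2.75%). It was 6 without fluoxetine replicate 3 (2.25%, background 2.01%) and 3 without fluoxetine replicate 1 (1.12%, background 1.01%). In the last 3 of these fits the share of the lists was close to the background. Of the 45 genes called in either direction, 5 were called in all 6 fits (OGDH, BCS1L, MRM2, PPARGC1A and GRPEL1), and 40 lost the call in at least 1. Of the 45 calls, 45 were kept without control replicate 3 and 41 without fluoxetine replicate 2, but 16 without control replicate 1, 11 without control replicate 2, 8 without fluoxetine replicate 3 and 5 without fluoxetine replicate 1.

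Among mitochondrial ribosome genes, MRPL16 had 59.9, 53.0 and 42.9 CPM in control and 34.5, 38.3 and 30.8 CPM in fluoxetine and fell by 0.59 (SE 0.13, adjusted p = 0.0163), with a call in 4 of the 6 fits without 1 library. MRPL14 and MRPL27 fell by 0.44 and 0.39 (adjusted p = 0.0262 and 0.0307), each with a call in 2 of the 6. In RNA handling, MRM2, which methylates the large mitochondrial ribosomal RNA, had 90.4, 89.9 and 83.6 CPM in control and 58.2, 65.7 and 58.5 CPM in fluoxetine. It fell by 0.53 (SE 0.08, adjusted p = 0.00266) and was called in all 6 fits. PNPT1, which degrades mitochondrial RNA, and ELAC2, which trims tRNA ends, fell by 0.34 and 0.35 (adjusted p = 0.0185 and 0.0187), with calls in 5 and 3 of the 6. In import, GRPEL1, a partner of the import motor, fell by 0.57 (SE 0.09, adjusted p = 0.00400) and was called in all 6. TOMM40, the outer membrane channel, fell by 0.48 (adjusted p = 0.00671, called in 5 of the 6), and PMPCA, a subunit of the presequence peptidase, fell by 0.36 (adjusted p = 0.0160, called in 3).

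Assembly factors of the complexes were counted against 5.32% of all tested genes called lower and 7.76% called higher, and their lists are short. Of 18 tested for complex I, 4 for complex II and 19 for complex IV, 0 were called in either direction, with medians of -0.15, -0.20 and -0.07. At an unadjusted p under 0.05 these lists had 6, 0 and 4 lower genes (background 12.9%). Higher ones numbered 2, 0 and 0 (background 15.8%), and DESeq2 called 3, 0 and 1 lower (background 6.98%). Of 6 for complex III, BCS1L was called lower. BCS1L inserts the Rieske protein encoded by UQCRFS1, and had 61.7, 63.0 and 55.7 CPM in control and 38.7, 44.5 and 41.7 CPM in fluoxetine. It fell by 0.53 (SE 0.09, adjusted p = 0.00477) and was called in all 6 fits without 1 library. Of 5 for complex V, ATPAF1, which helps to assemble the catalytic head, was called lower (-0.34 ± 0.07, adjusted p = 0.0160) and was called in 3 of the 6 fits. Of 15 genes of cristae organisation, STOML2 and PHB2 fell by 0.37 and 0.36 and APOOL rose by 0.45 (adjusted p = 0.0286, 0.0473 and 0.0440). Each of these 3 was called in 2 of the 6 fits, those without control replicate 3 and without fluoxetine replicate 2.

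The lists that follow are also short, and 5.32% of all tested genes were called lower and 7.76% higher. Of 14 citric acid cycle genes, 1 was called higher and 1 lower, with 11 estimates below 0 and 3 above (median -0.11). OGDH, of the oxoglutarate dehydrogenase complex, had 219, 240 and 225 CPM in control and 298, 302 and 322 CPM in fluoxetine, and rose by 0.43 (SE 0.07, adjusted p = 0.00363), with a call in all 6 fits without 1 library. FH, fumarate hydratase, which acts next after complex II, had 248, 235 and 228 CPM in control and 178, 202 and 191 CPM in fluoxetine, and fell by 0.32 (SE 0.07, adjusted p = 0.0198), with a call in 4 of the 6, lost without fluoxetine replicate 1 or 3. Of 15 electron shuttles and carriers, CYCS, cytochrome c, fell by 0.26 and DHODH, a pyrimidine enzyme that feeds coenzyme Q, fell by 0.40 (adjusted p = 0.0327 and 0.0413). CYCS was called in 3 of the 6 fits, lost without control replicate 1, fluoxetine replicate 1 or fluoxetine replicate 3. DHODH was called in only 1, that without control replicate 3. Of 13 genes of coenzyme Q synthesis 0 were called by edgeR or DESeq2, with a median of 0.01. At an unadjusted p under 0.05, 2 of them were lower (background 12.9%) and 1 higher (background 15.8%). Of 13 genes in the list of mitochondrial DNA replication, which did not hold TWNK, MGME1 was called lower (-0.28 ± 0.08, adjusted p = 0.0459). It was called in 3 of the 6 fits.

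Of 15 nuclear regulators of respiration, 1 was called higher and 1 lower, against 7.76% and 5.32% of all tested genes. Estimates were above 0 for 7 and below 0 for 8, with a median of -0.01. DESeq2 called 1 higher and 2 lower (background 7.3% and 6.98%). PPARGC1A had 7.44, 7.92 and 8.83 CPM in the control libraries and 21.3, 21.2 and 22.5 CPM in the fluoxetine libraries. It rose by 1.42 on the log2 scale (SE 0.11, adjusted p = 3.72e-05) and was called in all 6 fits without 1 library. NRF1 had 19.7, 20.9 and 21.4 CPM in control and 15.0, 16.1 and 15.5 CPM in fluoxetine. The groups did not overlap, and NRF1 fell by 0.41 (SE 0.10, adjusted p = 0.0236). It was called in 3 of the 6 fits, and its adjusted p reached 0.117, with the call lost without control replicate 2, fluoxetine replicate 1 or fluoxetine replicate 3. The median of the nuclear subunit genes had the sign of NRF1 and not that of PPARGC1A, and no test linked them.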

How the data were processed

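Paired-end RNA sequencing covered 3 control libraries of H460 cells and 3 libraries after fluoxetine (20 µM, 24 h). The authors deposited raw read counts per gene and library, without normalization or pooling of replicates. The deposited table also holds log2 fold changes and p-values, raw and adjusted, that the authors computed for their own comparison and that were not used. The submitters' processing notes name fastp 0.20.0, HISAT2 2.1.0, HTSeq 0.10.0 and DESeq2 1.18.1 without their roles. The genome build is not given in the sources used here. Gene positions were those of GRCh38, since start and end matched GENCODE 29 for 96.8% of 31635 shared genes.

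Groups were taken from the treatment label. The test of counts was edgeR's quasi-likelihood test (version 4.0.16 in R 4.3.3) with TMM factors, without covariates. Genes were filtered with filterByExpr, and p-values of the remaining 15646 genes were adjusted after Benjamini and Hochberg. CPM is given after TMM normalization, with SD over 3 libraries. Levels per kilobase used the exon length of GENCODE 29, with the exons of all annotated transcripts of a gene merged. A merged length can exceed that of the transcripts present, which lowers the level per kilobase. At the depth of 16157507 to 27823667 counts, 3 counts, the limit that a count of 0 allows, were worth 0.108 to 0.182 CPM, which covers counting error alone. The step was also run on simulated counts with 200 planted 2-fold changes, of which edgeR recovered 200 with 7 false calls. Without planted changes there were 0 calls. The simulated libraries had no GC effects and no planted changes as small as those of the members, so the run does not cover these. The oxidative phosphorylation genes, the related lists and the motifs were chosen with earlier results of these data known, so their counts and medians carry no test. Lists were matched by symbol or identifier, and of 1 list gene, TOMM6, no row was analysed here. Named genes were all called members, all mitochondrial mRNA and ribosomal RNA genes, isoform pairs, complex II, the lowest and highest estimate of each complex, and up to 3 called genes per direction of each related list. Alternatives were DESeq2 1.42.0, limma-voom (limma 3.58.1), RLE, library size only, library sizes from nuclear genes, no filter, at least 10 counts in every library, a replicate block, thinning to the smallest library, an unadjusted p-value and leaving out each library. Removal of trends with GC content and exon length, and leaving out the third replicate of both groups, were added after seeing the data.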

Additional observations from a re-analysis of the deposited data

How the results depend on the processing

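Of the nuclear genes, 3 were called lower in the reported test (background 5.32%) and 6 with DESeq2 (6.98%). There was 1 each with limma-voom (4.84%), library size only (4.61%) and thinned libraries (5.23%). Library sizes from nuclear genes gave 7 (7.36%), and no filter on low counts gave 19 (4.77%). There were 14 with GC content and length trends removed (15.0%) and 14 without the third replicates (7.66%). At an unadjusted p under 0.05 there were 15 (12.9%). None of these alternatives called a nuclear gene higher, where 4.39% to 15.8% of all tested genes were. The number called lower lay between 0 and 28 with 1 library left out, the highest without control replicate 3. The mitochondrial mRNA genes called higher numbered 2 in place of 1 with DESeq2, limma-voom, library size only, no filter, trends removed, without the third replicates and unadjusted. With 1 library left out, 1 to 6 were called lower (1 without fluoxetine replicate 1) and 1 to 2 higher (2 without control replicate 3). Of the related list genes, 42 were called lower and 3 higher. Those lower became 84 without a filter (background 4.77%) and 107 with trends removed (15.0%). They were 65 without the third replicates (7.66%) and 100 unadjusted (12.9%). Those higher became 5 with trends removed (background 9.79%), 5 without the third replicates (9.64%), 10 unadjusted (15.8%) and 5 with library size only (8.3%). Leaving out 1 library gave 3 to 112 lower (background 1.01% to 12.7%) and 2 to 5 higher (background 2.53% to 10.3%). The causes of these moves were not tested.

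Replicate numbers are shared between the groups. Deviations of same-numbered libraries from their group means correlated at 0.03, 0.12 and 0.39 over 15646 genes. Control replicates 1 and 2 both correlated best with fluoxetine replicate 2. Control replicate 3 and fluoxetine replicate 3 correlated best with each other. The labels name no pairing, so none was used in the reported test. A batch shared by the third replicates was not tested. With the replicate block, 22 nuclear genes were called lower (background 11.4%) and 2 mitochondrial mRNA genes higher (background 14.3%). Related list genes called numbered 97 lower and 7 higher.

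Across all tested genes, 59.3% of calls were higher, and 47.7% with library sizes from nuclear genes alone. Estimates close to 0 changed sign under a few alternatives. ATP5J gave 0.0035 with limma-voom, 0.018 with library size only and 0.012 with trends removed, and ran from -0.125 to 0.071 with 1 library left out. COX7A2L gave 0.0070 with library size only and 0.0062 without the third replicates, with a range of -0.12 to 0.00027. NDUFB2, NDUFA4L2 and UQCR11 gave -0.055, 0.11 and 0.020 without the third replicates, and SDHC gave -0.10 with trends removed. With 1 library left out, NDUFB2 ran from -0.10 to 0.076, NDUFA4L2 from -0.74 to 0.22, UQCR11 from -0.14 to 0.0027, COX6A1 from -0.25 to 0.10 and LHPP from -0.20 to 0.43. Depth was not limiting for most members, but 20 of the 91 averaged under 100 counts.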
